A study of Mus musculus with 7 samples.

Results

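Glycolysis, the pentose phosphate pathway and the hypoxia-inducible factor (HIF) system were read as 37 genes in natural killer (NK) cells of the mouse spleen that lack or carry the homeobox transcription factor Hhex. The 37 genes were chosen by symbol, among 53379 genes of the count table. All 37 were found and all 37 passed the filter on low counts, which kept 12161 genes of the table. The symbol Aldoa belongs to 2 gene identifiers, and the one with more reads was used. Each of the 7 libraries came from sorted splenic cells of C57BL/6 mice (CD45+ CD3- NK1.1+ NKp46+ CD49b+) taken ex vivo. There were 4 libraries of the genotype Hhex KO and 3 of the genotype Cre control. The sources used here give neither the Cre driver, the Hhex allele, the age of the mice nor whether animals were pooled. The series asks how Hhex affects the upkeep of NK cells.

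Glycolysis splits glucose into pyruvate in the cytosol, first spending ATP to phosphorylate the sugar and then earning ATP and NADH from the triose phosphates. Pyruvate is either reduced to lactate or carried into mitochondria, where the pyruvate dehydrogenase complex turns it into acetyl-CoA. The pentose phosphate pathway branches off at glucose 6-phosphate and yields NADPH and ribose phosphate. HIF transcription factors pair an oxygen-labile alpha subunit with a stable beta subunit, and they raise the transcription of many glycolytic genes when prolyl hydroxylases cannot mark the alpha subunit for destruction. Resting NK cells use little glucose, and cytokine stimulation raises their glycolysis.

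The libraries differed along several lines besides genotype. Hhex, the targeted gene, had 58.0, 56.5, 54.2 and 64.8 counts per 1000000 scaled reads (CPM) in the 4 Hhex KO libraries, against 96.1, 95.6 and 93.5 CPM in the Cre control libraries. All Hhex KO libraries lay below all Cre control libraries, and counts cover the whole gene, including any part that was not deleted. Total counts per library ranged from 10589915 to 18456404. Of 13 NK cell markers 0 passed the test, and their summed level was 17500 to 23500 CPM in Hhex KO and 21800 to 27000 CPM in Cre control. Reads of nuclear-retained RNA (Malat1, Neat1 and 2 others, of which Meg3 was at 0) summed to 1130, 202, 179 and 1060 CPM in Hhex KO replicates 1 to 4, against 804, 315 and 500 CPM in Cre control replicates 1 to 3. Handling and stress genes summed to 530 to 3400 CPM in Hhex KO against 5660 to 7720 CPM in Cre control. Proliferation markers summed to 889 to 1950 CPM in Hhex KO against 619 to 971 CPM in Cre control, and 6 of 20 were higher. ILC1 markers were higher in 9 of 10 genes, with a sum of 553 to 731 CPM against 142 to 172 CPM. T cell markers summed to 218 to 305 CPM against 155 to 184 CPM (1 of 7 tested higher), B cell markers to 246 to 408 CPM against 215 to 261 CPM (1 of 4 higher), and platelet markers to 16.7 to 32.4 CPM against 37.4 to 54.0 CPM (1 of 5 lower). Myeloid markers reached 538 CPM in Hhex KO replicate 2, against 23.7 to 99.1 CPM in Hhex KO replicates 1, 3 and 4 and 56.7 to 159 CPM in Cre control. Erythroid markers summed to 2.04 to 50.8 CPM against 5.46 to 27.4 CPM, and dendritic cell markers to 29.1 to 42.6 CPM against 30.6 to 39.4 CPM. Hhex KO replicate 4 carries the sample number 95, against 20 to 28 for the other 6 libraries, and whether it was a batch of its own is not stated. For nuclear-retained RNA, fits that take account of it are given below. The part that the other marker lists have in the results was not tested, and in bulk RNA fewer cells of a type and less RNA per cell cannot be told apart.

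None of the 37 genes passed the test between Hhex KO and Cre control NK cells. The counts were 0 higher and 0 lower at an adjusted p below 0.05 (quasi-likelihood test of edgeR, Benjamini-Hochberg over all 12161 genes, n = 4 and n = 3), where 2.68% of all tested genes were called higher and 1.87% lower. At an unadjusted p below 0.05, 6 genes were higher (Pfkm, Ldhb, Pdk1, Gpi1, Hk2 and Egln3) and 1 was lower (Pdk2). Over all tested genes these shares were 10.1% higher and 8.45% lower, against 16.2% and 2.70% of the 37. In 3 genes (Pfkm, Ldhb and Pdk1, 8.11%) every Hhex KO library lay above every Cre control library, against 9.37% of all tested genes, and in Pdk2 alone every Hhex KO library lay below, against 9.98% of all tested genes. The shares of genes whose groups did not overlap were therefore near or below those of the whole table. The median log2 fold change, Hhex KO over Cre control, was 0.20 for the 37 genes and 0.02 for all tested genes, and 26 of the 37 (70.3%) were above 0, against 52.7% of all tested genes. The median of the 37 depended on single libraries. With 1 library left out it ran from 0.08 without Hhex KO replicate 3 (21 above 0) to 0.29 without Cre control replicate 2 (28 above 0). For 31 of the 37 genes the 95% interval of the fold change lay within a 2-fold difference in either direction, and for 16 it lay within 1.5-fold, against 72.1% and 44.7% of all tested genes. A change of less than 2-fold therefore remained possible for many of them at this depth and spread.

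**Figure D1:**
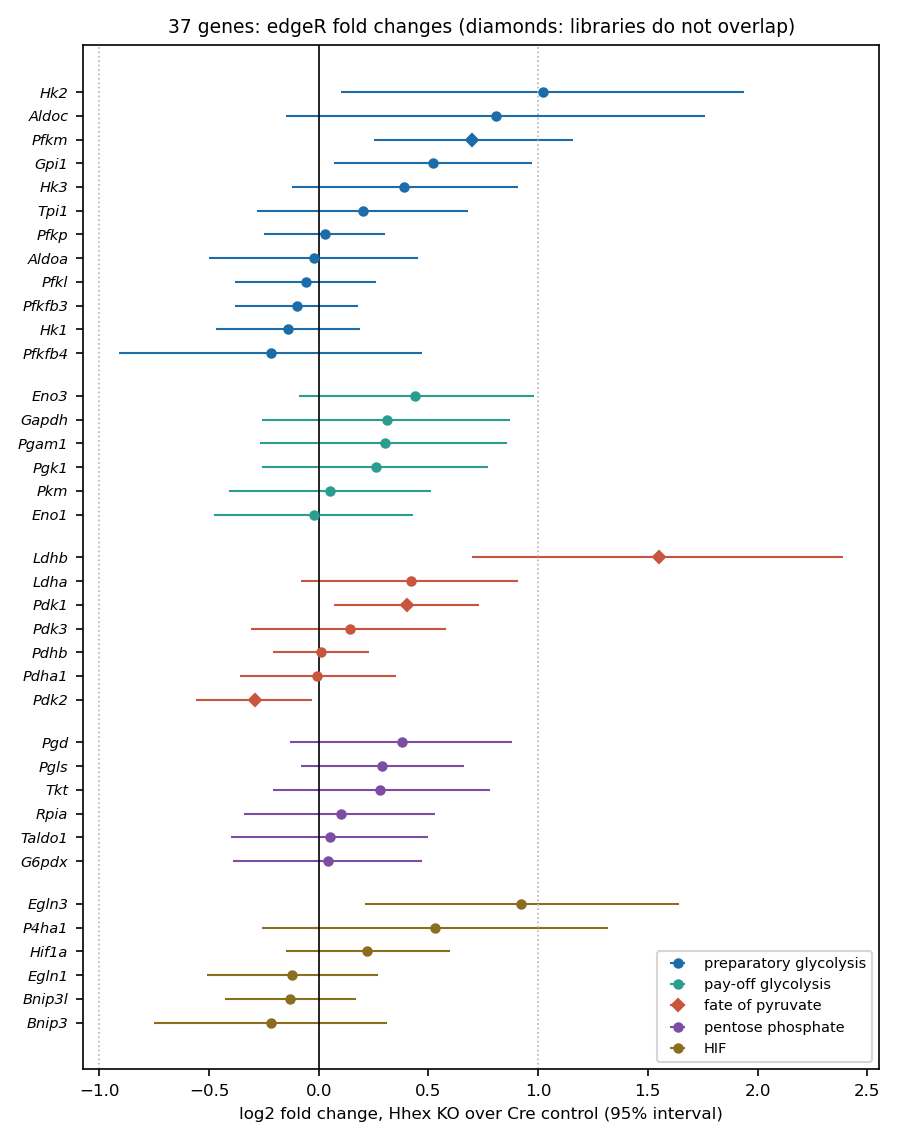
Log2 fold change (x axis, Hhex KO over Cre control, edgeR) of each of the 37 genes, grouped by role. Points are estimates, bars are 95% intervals, and diamonds mark the 4 genes whose libraries do not overlap (Ldhb, Pfkm and Pdk1 above 0, Pdk2 below). The estimates run from -0.29 for Pdk2 to 1.55 for Ldhb.

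The DNA just upstream of 6 of these genes is shown because their promoters can be read for the core of the HIF response element. Pfkm, Ldhb, Pdk1 and Pdk2 are the genes without overlap, and Ldha and Pgk1 are textbook HIF targets. The 250 bases before 1 start site of each gene are given for Pfkm (chr15:98092339-98092588, + strand), Ldhb (chr6:142507958-142508207, - strand), Pdk1 (chr2:71872974-71873223, + strand), Pdk2 (chr11:95041372-95041621, - strand), Ldha (chr7:46845554-46845803, + strand) and Pgk1 (chrX:106186850-106187099, + strand). RefSeq has 4 windows around start sites for Pfkm, 2 each for Pdk1, Pdk2 and Ldha, and 1 each for Ldhb and Pgk1. The windows not printed may differ, and the printed stretch of Ldha lies inside the span of the gene. They are RefSeq sequences of the build GRCm38.p6, written 5′ to 3′ on the strand of the gene, and capitals mark ACGTG or GCGTG read on either strand.
Pfkm: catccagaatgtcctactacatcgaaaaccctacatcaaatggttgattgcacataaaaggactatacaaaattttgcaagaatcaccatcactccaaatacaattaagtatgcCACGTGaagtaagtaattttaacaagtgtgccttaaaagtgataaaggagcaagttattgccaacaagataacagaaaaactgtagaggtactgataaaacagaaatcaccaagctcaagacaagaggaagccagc
Ldhb: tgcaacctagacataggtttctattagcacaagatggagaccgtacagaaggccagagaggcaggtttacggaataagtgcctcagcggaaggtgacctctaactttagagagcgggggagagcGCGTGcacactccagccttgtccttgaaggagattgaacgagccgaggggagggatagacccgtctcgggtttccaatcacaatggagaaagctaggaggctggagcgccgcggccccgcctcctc
Pdk1: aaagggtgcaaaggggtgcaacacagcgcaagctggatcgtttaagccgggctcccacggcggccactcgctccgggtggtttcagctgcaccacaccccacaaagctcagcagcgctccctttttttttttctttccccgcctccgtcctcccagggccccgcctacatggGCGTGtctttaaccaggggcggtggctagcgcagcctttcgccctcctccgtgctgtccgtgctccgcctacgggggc
Pdk2: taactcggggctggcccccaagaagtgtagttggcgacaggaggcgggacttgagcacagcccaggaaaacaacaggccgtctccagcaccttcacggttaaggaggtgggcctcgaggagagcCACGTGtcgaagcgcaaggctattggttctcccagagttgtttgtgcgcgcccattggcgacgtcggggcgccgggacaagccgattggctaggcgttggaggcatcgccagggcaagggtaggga
Ldha: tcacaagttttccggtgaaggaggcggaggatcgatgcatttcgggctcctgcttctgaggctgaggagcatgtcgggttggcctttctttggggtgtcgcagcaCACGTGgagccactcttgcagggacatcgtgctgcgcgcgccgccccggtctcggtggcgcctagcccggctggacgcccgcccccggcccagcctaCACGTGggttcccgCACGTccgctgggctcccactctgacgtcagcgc
Pgk1: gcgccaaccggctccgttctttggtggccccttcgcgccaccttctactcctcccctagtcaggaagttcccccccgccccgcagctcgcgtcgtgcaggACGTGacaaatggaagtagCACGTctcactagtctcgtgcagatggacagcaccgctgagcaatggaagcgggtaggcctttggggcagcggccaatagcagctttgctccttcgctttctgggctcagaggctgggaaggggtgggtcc
The core was searched as ACGTG and as GCGTG, on both strands, in 300 bases around each start site (250 before and 50 after). RefSeq windows matched 36 of the 37 genes, with 51 windows in all, and the remaining gene is Bnip3l. ACGTG lay in 24 of the 51 windows (47.1%), against 19.6% of all 32851 windows. GCGTG lay in 31 of 51 (60.8%), against 32.4% of all windows. The E-box CACGTG, which contains ACGTG, lay in 6 of 51 windows (11.8%), against 7.15% of all windows. The windows of the 37 genes had a median GC content of 61.0%, against 52.7% for all windows, and these shares were not matched for it. Ldhb and Pdk1 show GCGTG but no ACGTG in the printed stretch, and Pfkm, Pdk2 and Ldha show the full E-box. A match is a description of the letters and not a site in use.

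In the preparatory steps of glycolysis, 0 of 12 genes passed the test, and Pfkm came nearest. Pfkm (ENSMUSG00000033065.13, chromosome 15, 98092589 to 98132451, + strand, GRCm38) encodes the muscle-type subunit of phosphofructokinase-1, the enzyme that commits fructose 6-phosphate to glycolysis. Its level was 12.6, 10.9, 10.5 and 13.0 CPM in Hhex KO, against 5.25, 8.27 and 8.05 CPM in Cre control. All Hhex KO libraries were above the highest Cre control library, and Cre control replicate 1 was the lowest of all. The log2 fold change was 0.70 ± 0.20 (SE), with an adjusted p of 0.0913, so the difference did not pass the threshold. It was past 0.05 with DESeq2 (adjusted p 0.0350), where 5.14% of all tested genes were called higher. The log2 estimate was 0.52 without Cre control replicate 1 (adjusted p 0.297) and 0.37 without the 3 libraries highest in Malat1 (adjusted p 0.138). The platelet-type subunit Pfkp and the liver-type subunit Pfkl were the more abundant ones. Pfkp averaged 375 ± 36.5 CPM in Hhex KO and 368 ± 19.2 CPM in Cre control (SD, n = 4 and n = 3), a log2 fold change of 0.03 ± 0.12. Pfkl averaged 78.5 ± 13.0 CPM in Hhex KO and 81.9 ± 0.855 CPM in Cre control, a log2 fold change of -0.06 ± 0.14.

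Hexokinases trap glucose in the cell as glucose 6-phosphate, and these NK cells read mainly Hk1. Hk1 averaged 202 ± 30.0 CPM in Hhex KO and 223 ± 19.2 CPM in Cre control, a log2 fold change of -0.14 ± 0.14. Hk2, the inducible hexokinase, had 4.66, 7.22, 7.36 and 2.83 CPM in Hhex KO, against 1.65, 3.96 and 2.65 CPM in Cre control. Its groups overlapped, since Hhex KO replicate 4 lay below Cre control replicate 2, and its log2 fold change of 1.02 ± 0.40 had an adjusted p of 0.219. Hk3, which is found mainly in myeloid cells, had 14.7, 17.8, 10.5 and 11.8 CPM in Hhex KO, against 7.94, 12.2 and 11.1 CPM in Cre control. Its highest library, Hhex KO replicate 2, is also the library highest in myeloid markers. Cre control replicate 2, the highest of its group in Hk3, was also the highest of its group in myeloid markers (159 CPM). Hhex KO replicate 1, with 99.1 CPM of myeloid markers, had more Hk3 than Cre control replicate 2. The part of myeloid cells in Hk3 was not tested.

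Gpi1, which interconverts glucose 6-phosphate and fructose 6-phosphate, had 344, 448, 459 and 282 CPM in Hhex KO, against 225, 309 and 270 CPM in Cre control. Only Hhex KO replicate 4 lay within the range of Cre control, and the log2 fold change of 0.52 ± 0.20 had an adjusted p of 0.203. Aldoa (chromosome 7, 126795234 to 126800751, - strand), the aldolase that cleaves fructose 1,6-bisphosphate, was the most abundant of the preparatory genes per length. Its level was 271, 403, 393 and 235 CPM in Hhex KO, against 300, 381 and 312 CPM in Cre control. The Hhex KO libraries lay on both sides of the Cre control range, and the estimate was a log2 fold change of -0.02 ± 0.21 (adjusted p 0.974). That sign was not stable, since leaving out Hhex KO replicate 4 gave 0.10. Aldoc, a minor aldolase of this tissue, averaged 2.25 ± 0.768 CPM in Hhex KO and 1.30 ± 0.560 CPM in Cre control. Tpi1, triose phosphate isomerase, averaged 152 ± 39.8 CPM in Hhex KO and 132 ± 19.4 CPM in Cre control. Pfkfb3 and Pfkfb4 make the activator of phosphofructokinase-1, fructose 2,6-bisphosphate. Pfkfb3 averaged 47.6 ± 5.34 CPM in Hhex KO and 51.1 ± 4.26 CPM in Cre control, and Pfkfb4 averaged 2.48 ± 0.748 CPM in Hhex KO and 2.92 ± 0.565 CPM in Cre control.

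In the pay-off steps, 0 of 6 genes passed the test, and log2 fold changes ran from -0.02 (Eno1) to 0.44 (Eno3). Pkm (chromosome 9, 59656368 to 59679375, + strand), pyruvate kinase, was the most abundant of them per length. It had 400, 562, 521 and 322 CPM in Hhex KO, against 382, 488 and 442 CPM in Cre control. Again the Hhex KO libraries lay on both sides of the Cre control libraries, and the log2 estimate of 0.05 ± 0.20 (adjusted p 0.946) became -0.08 without Hhex KO replicate 2. Gapdh, which oxidises glyceraldehyde 3-phosphate, averaged 207 ± 65.2 CPM in Hhex KO and 167 ± 26 CPM in Cre control. Pgk1, phosphoglycerate kinase, averaged 65.8 ± 19.5 CPM in Hhex KO and 55.1 ± 7.44 CPM in Cre control, and Pgam1, phosphoglycerate mutase, 19.9 ± 6.53 CPM and 16.3 ± 1.36 CPM. The ubiquitous enolase Eno1 averaged 304 ± 78.3 CPM in Hhex KO and 309 ± 30.6 CPM in Cre control, and the muscle enolase Eno3 averaged 8.10 ± 2.2 CPM in Hhex KO and 5.93 ± 0.703 CPM in Cre control.

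The levels of several of these genes are uncertain because other annotated genes share stretches of their sequence. Of all 75-base windows of the transcripts, the length of the reads, 52.8% were shared with another annotated gene for Pgk1, 34.9% for Pgam1, 34.4% for Bnip3, 23.0% for Eno1 and 22.6% for Gapdh. For Gapdh the sharing genes numbered 121. A further 7 of the 37 genes shared over 10% of their windows. How reads that fit several places were counted is not stated in the sources at hand.

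**Figure D2:**
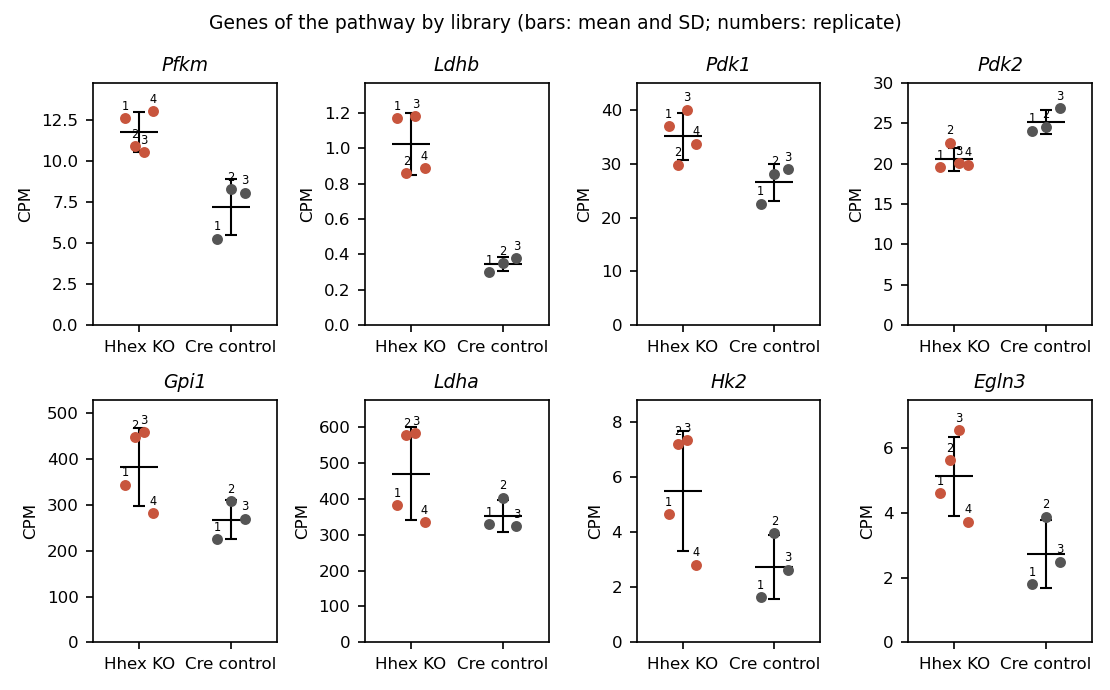
Level in CPM (y axis, from 0) of 8 of the 37 genes. Each point is 1 library with its replicate number, Hhex KO left of Cre control, and bars are group mean and SD. The libraries of Pfkm, Ldhb and Pdk1 stand higher in Hhex KO and those of Pdk2 lower, without overlap, while those of Gpi1, Ldha, Hk2 and Egln3 overlap.

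Among the genes that decide the fate of pyruvate, 0 of 7 passed the test, and 3 had groups that did not overlap. Ldhb (ENSMUSG00000030246.11, chromosome 6, 142490249 to 142507957, - strand) encodes the heart-type subunit of lactate dehydrogenase. It had 1.17, 0.859, 1.18 and 0.886 CPM in Hhex KO, against 0.300, 0.352 and 0.378 CPM in Cre control. These levels rest on 18, 15, 20 and 10 reads in Hhex KO and on 4, 4 and 7 reads in Cre control. Every Hhex KO library was more than 2-fold above every Cre control library, and the log2 fold change was 1.55 ± 0.37 with an adjusted p of 0.0529, the smallest of the 37 genes. Ldha (chromosome 7, 46841475 to 46855627, + strand), the muscle-type subunit that carries nearly all lactate dehydrogenase reads here, had 381, 576, 583 and 335 CPM in Hhex KO, against 329, 403 and 324 CPM in Cre control. Hhex KO replicates 1 and 4 lay within the range of Cre control and replicates 2 and 3 above it, which gave 0.42 ± 0.22 on the log2 scale (adjusted p 0.366).

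Pyruvate dehydrogenase kinases switch off the pyruvate dehydrogenase complex, and 2 of the 3 read here pointed in opposite directions. Pdk1 (ENSMUSG00000006494.11, chromosome 2, 71873224 to 71903858, + strand) had 37, 29.9, 40.1 and 33.8 CPM in Hhex KO, against 22.6, 28.2 and 29.0 CPM in Cre control. The groups were separate by a small gap, and the log2 fold change of 0.40 ± 0.15 had an adjusted p of 0.173. Pdk2 (ENSMUSG00000038967.13, chromosome 11, 95026258 to 95041354, - strand) had 19.6, 22.6, 20.1 and 19.9 CPM in Hhex KO, against 24.1, 24.6 and 26.9 CPM in Cre control. All Hhex KO libraries were below all Cre control libraries, with a log2 fold change of -0.29 ± 0.12 and an adjusted p of 0.215. Pdk1 over Pdk2, in CPM, was 1.89, 1.32, 1.99 and 1.70 in Hhex KO, against 0.938, 1.15 and 1.08 in Cre control. The ratio could not overlap, because the 2 levels were already apart in opposite directions, so it adds no further result. Pdk3 averaged 33.9 ± 8.22 CPM in Hhex KO and 30.9 ± 3.95 CPM in Cre control. The complex's own E1 subunits gave estimates near 0. Pdha1 averaged 138 ± 24.1 CPM in Hhex KO and 139 ± 15.5 CPM in Cre control (log2 fold change -0.01 ± 0.16). Pdhb averaged 89.8 ± 4.61 CPM in Hhex KO and 89.3 ± 3.78 CPM in Cre control (0.01 ± 0.10), and its 95% interval of -0.21 to 0.23 was the tightest of the 37 genes.

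In the pentose phosphate pathway, 0 of 6 genes passed the test, and all 6 log2 fold changes lay between 0.04 and 0.38. Taldo1 (chromosome 7, 141392199 to 141402968, + strand), transaldolase of the non-oxidative branch, was the most abundant per length. It had 156, 243, 222 and 150 CPM in Hhex KO, against 175, 216 and 167 CPM in Cre control. Its Hhex KO libraries lay on both sides of the Cre control libraries, and the estimate was a log2 fold change of 0.05 ± 0.20 (adjusted p 0.938), or -0.08 without Hhex KO replicate 2. In the oxidative branch, G6pdx, the first and rate-limiting enzyme, averaged 70.5 ± 17.1 CPM in Hhex KO and 68.7 ± 7.56 CPM in Cre control (log2 fold change 0.04 ± 0.19). Pgls, which opens the lactone ring, averaged 67.4 ± 13.7 CPM in Hhex KO and 55.0 ± 2.35 CPM in Cre control (0.29 ± 0.16). Pgd, which makes ribulose 5-phosphate, averaged 142 ± 41.6 CPM in Hhex KO and 110 ± 13.7 CPM in Cre control (0.38 ± 0.22). Tkt, transketolase, averaged 250 ± 66.7 CPM in Hhex KO and 205 ± 28.3 CPM in Cre control (0.28 ± 0.22), and Rpia, ribose 5-phosphate isomerase, 73.0 ± 17.3 CPM and 68.4 ± 8.85 CPM (0.10 ± 0.19).

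In the HIF group, 0 of 6 genes passed the test. Hif1a (ENSMUSG00000021109.13, chromosome 12, 73901375 to 73947530, + strand), the oxygen-labile alpha subunit found in most cells, had 78.0, 102, 111 and 72.3 CPM in Hhex KO, against 74.0, 84.9 and 74.8 CPM in Cre control. Hhex KO replicates 2 and 3 stood above the Cre control range and replicate 4 below it, which gave 0.22 ± 0.17 on the log2 scale (adjusted p 0.550). The estimate was 0.38 with sample quality weights (limma-voom, adjusted p 0.0401) and 0.40 without the 3 libraries highest in Malat1 (adjusted p 0.0295), both past the threshold, and 0.12 without Hhex KO replicate 3 (adjusted p 0.791). RNA levels do not measure HIF protein, which is set largely by its breakdown. Egln3, a prolyl hydroxylase that is itself a HIF target, had 4.60, 5.61, 6.54 and 3.72 CPM in Hhex KO, against 1.80, 3.87 and 2.49 CPM in Cre control. Hhex KO replicate 4 lay just under Cre control replicate 2, and the log2 fold change of 0.92 ± 0.32 had an adjusted p of 0.150. Egln1, the main prolyl hydroxylase of HIF, averaged 124 ± 25.3 CPM in Hhex KO and 135 ± 12.8 CPM in Cre control (log2 fold change -0.12 ± 0.17).

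Of the downstream HIF targets, P4ha1, a collagen prolyl hydroxylase subunit, had 30.2, 83.9, 54.2 and 31.6 CPM in Hhex KO, against 33.9, 35.4 and 34.7 CPM in Cre control. Hhex KO replicates 2 and 3 were high and replicates 1 and 4 were below Cre control (log2 fold change 0.53 ± 0.34, adjusted p 0.478). Its highest library is again the one highest in myeloid markers, while Hhex KO replicate 3, also above every Cre control library, had 36.8 CPM of myeloid markers, against 56.7 to 159 CPM in Cre control. The part of myeloid cells in P4ha1 was not tested. Bnip3l (chromosome 14, 66985239 to 67008877, - strand), a mitophagy receptor and the most abundant gene of the group per length, had 112, 146, 143 and 133 CPM in Hhex KO, against 165, 142 and 131 CPM in Cre control. The groups overlapped, and the log2 estimate was -0.13 ± 0.13 (adjusted p 0.704). Its relative Bnip3 averaged 7.58 ± 1.80 CPM in Hhex KO and 8.86 ± 1.5 CPM in Cre control.

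The 37 genes spanned more than 2 orders of magnitude in level. Scaled to CPM per kilobase of exon, the highest were Ldha (142 in Hhex KO, 106 in Cre control), Aldoa (112 and 114), Pkm (90.2 and 87.4) and Taldo1 (88.7 and 85.7). Next came Gpi1 (59.4 in Hhex KO, 41.6 in Cre control), Eno1 (56.6 and 57.5) and Tpi1 (55.2 and 48.1). Neighbours in this order, such as Pkm and Taldo1, differed by less than the spread between libraries. At the low end stood Hk2 (0.925 in Hhex KO, 0.461 in Cre control), Aldoc (0.691 and 0.398), Ldhb (0.651 and 0.219) and Pfkfb4 (0.509 and 0.599).

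Within each genotype, most of the 37 genes were high or low in the same libraries. Hhex KO replicates 2 and 3 both lay above replicates 1 and 4 in 27 of the 37 genes (73.0%), against 36.4% of all tested genes. Both lay below them in 2 (5.41%), against 31.2% of all tested genes. This split of the Hhex KO libraries was therefore found across the table, in both directions. Within Cre control, replicate 2 was the highest in 26 of 37 genes (70.3%), against 36.4% of all tested genes. The median deviation of the 37 genes from their group mean on the log2 scale was -0.14, 0.25, 0.24 and -0.38 in Hhex KO replicates 1 to 4, and -0.14, 0.16 and -0.01 in Cre control replicates 1 to 3. The median deviation of all tested genes in Hhex KO replicate 4 was -0.02. Hhex KO replicate 4 was the lowest of all 7 libraries in 18 of 37 genes, and the share over all tested genes was not counted. It was also the library that made the groups of Gpi1, Hk2 and Egln3 overlap, and without it 0 of the 37 genes were called higher and 0 lower. The highest Hhex KO library was a median of 1.68 times the lowest (1.11 to 2.78, P4ha1 the most), and the highest Cre control library a median of 1.27 times the lowest (1.02 to 2.61, Aldoc the most). Nuclear-retained RNA ran the other way within both groups, with 1130 and 1060 CPM in Hhex KO replicates 1 and 4 against 202 and 179 CPM in replicates 2 and 3, and its lowest Cre control value, 315 CPM, in replicate 2. Its part in the spread was examined in fits added after the data were seen. Proliferation markers ran with the 37 genes, at 1650, 1830, 1950 and 889 CPM in Hhex KO replicates 1 to 4. In Cre control replicates 1 to 3 they summed to 619, 971 and 889 CPM, and their part in the spread was not tested. With nuclear-retained RNA as a covariate, 7 of the 37 genes were higher and 0 lower (Hk2, Gpi1, Pfkm, Ldha, Ldhb, Pgd and Egln3, adjusted p 0.00971 to 0.0455), where 8.46% of all tested genes were called higher and 7.62% lower. Leaving out the 3 libraries highest in Malat1 (Hhex KO replicates 1 and 4 and Cre control replicate 1), 13 genes were higher and 0 lower, where 11.2% of all tested genes were called higher and 9.98% lower. This left only Hhex KO replicates 2 and 3 against Cre control replicates 2 and 3. The Hhex KO libraries kept are those that were high in 27 of the 37 genes. Of Cre control, the fit kept replicate 2, the highest in 26, and left out replicate 1, the lowest in 28. The part of this choice of libraries in the calls was not tested. In limma-voom with sample quality weights, 13 of 37 genes were higher and 0 lower, against 12.7% and 10.9% of all tested genes. Both of these fits called Hk2, Gpi1, Gapdh, Pgk1, Pgam1, Ldha, Pgd, Pgls, Tkt, Hif1a and Egln3. They draw on the same libraries, so the shared calls are not separate evidence. The fit without the 3 libraries also called Tpi1 and P4ha1, and the weighted one Pfkm and Ldhb.

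**Figure D3:**
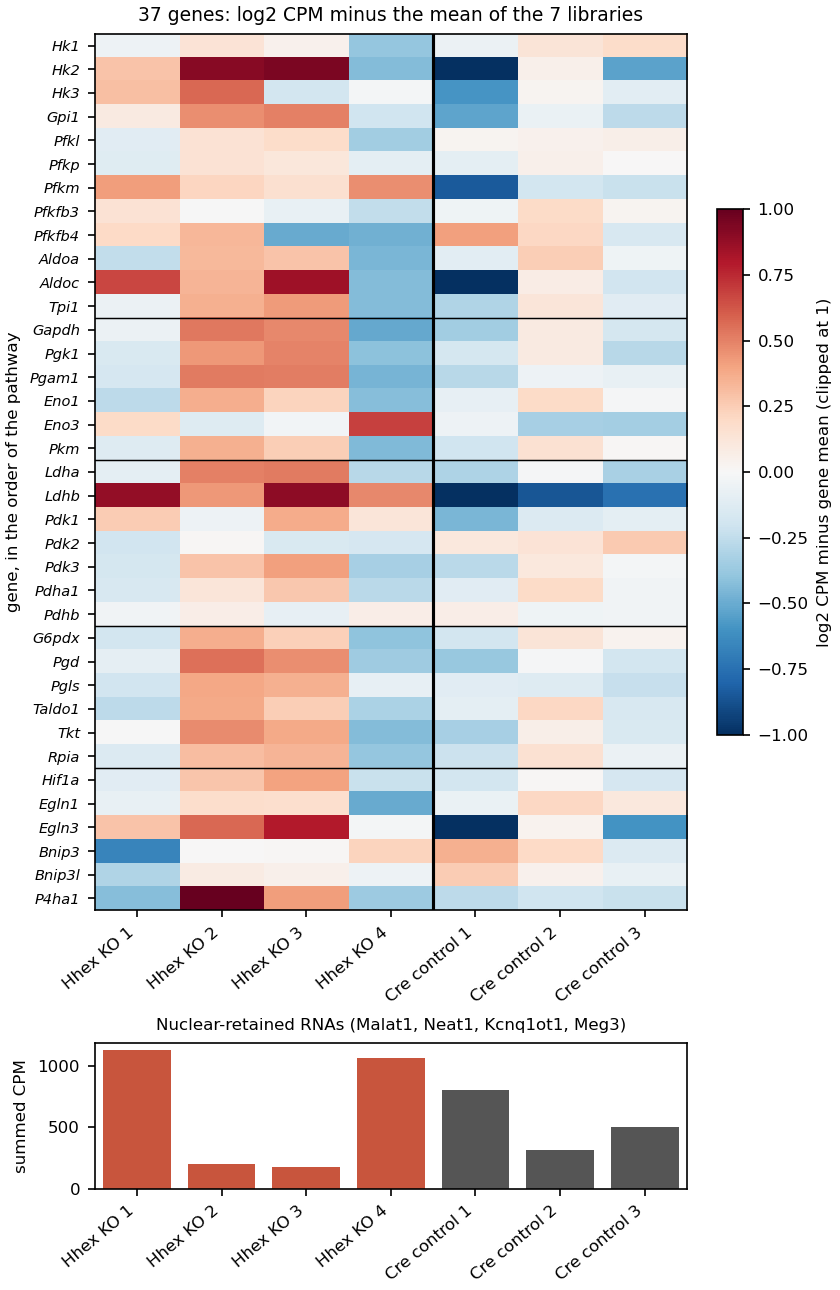
Heat map of the 37 genes (rows, by role) in the 7 libraries (columns, Hhex KO left of Cre control), coloured by log2 CPM minus the gene's mean over the libraries, clipped at 1 either way. The bar chart under it gives the summed CPM of nuclear-retained RNA in each library. Hhex KO replicates 2 and 3 are above replicates 1 and 4 in 27 of the 37 genes, and replicate 4 is the lowest of 7 in 18.

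Within enzyme families, the share held by each isoenzyme cancels only what its members have in common to the same degree in a library. The shares are of CPM per kilobase summed over the family members among the 37 genes, which leaves out Egln2. They are given as a description, with no test. Pfkm made up 6.73 to 9.98% of phosphofructokinase-1 in Hhex KO and 3.96 to 5.69% in Cre control. Egln3 made up 4.89 to 5.80% of Egln1 and Egln3 together in Hhex KO and 1.96 to 3.43% in Cre control. Pdk2 made up 22.6 to 30.6% of the 3 kinases in Hhex KO and 31.3 to 36.5% in Cre control. Hk1 made up 81.7 to 86.0% of hexokinase in Hhex KO and 87.1 to 90.7% in Cre control. Aldoc made up 0.467 to 0.867% of aldolase in Hhex KO and 0.200 to 0.416% in Cre control, and Ldhb 0.313 to 0.641% of lactate dehydrogenase in Hhex KO and 0.184 to 0.246% in Cre control. In each of these 6 the groups did not overlap. The levels of Pfkm, Ldhb and Pdk2 were already apart in the same direction, so their shares are not separate results. A library pattern remained within Hhex KO, where the shares of Pfkm, Ldhb and Pdk2 were higher in replicates 1 and 4 than in replicates 2 and 3. The shares of Egln3, Hk1 and Aldoc did not follow it. Of the levels of all tested genes, 9.37% were higher without overlap and 9.98% lower. Those are levels of single genes and not shares, so the comparison is loose, and shares within a family depend on each other. The share of Hk2 overlapped between the groups when scaled by length and was higher in Hhex KO without overlap when not. The shares of Hk3, Pfkp, Pfkl, Pfkfb4, Eno3, Pdk1, Pdk3 and Bnip3 overlapped.

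**Figure D4:**
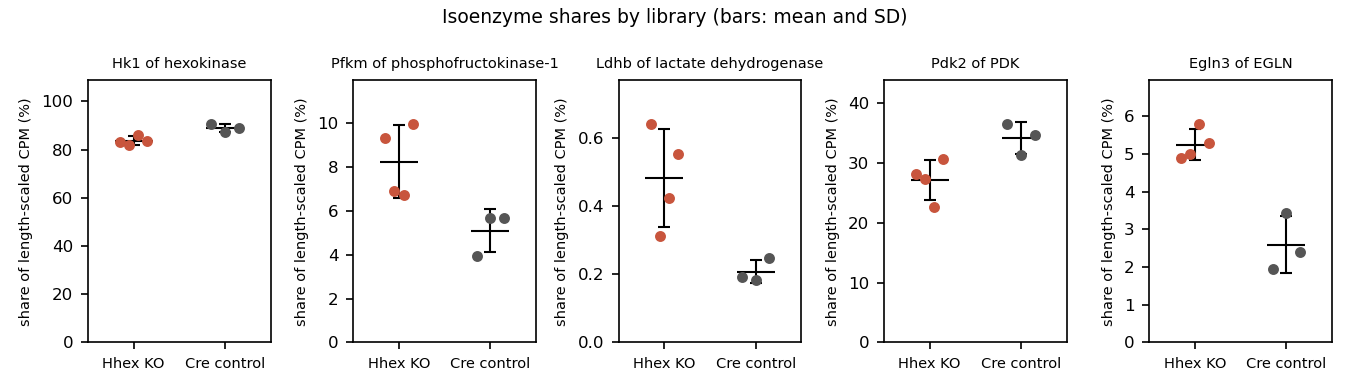
Share of an isoenzyme in its family's summed level (y axis, percent of CPM per kilobase, from 0), 1 point per library, Hhex KO left of Cre control, with bars at the group mean and SD. Only family members among the 37 genes are summed, so the share of Egln3 is of Egln1 and Egln3, without Egln2. The shares of Pfkm, Ldhb and Egln3 are higher in Hhex KO and those of Hk1 and Pdk2 lower, without overlap between the groups.

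Genes next to these pathways were read from 6 lists of 77 further genes, of which 59 were tested. In Hhex KO 2 rose, Epas1 and Galm (3.39%), and 3 fell, Pdp1, Bpgm and Vegfa (5.08%), against 2.68% higher and 1.87% lower among all tested genes. Epas1 (ENSMUSG00000024140.9, chromosome 17), which encodes HIF-2α, the alpha subunit with a narrower tissue range than that of Hif1a, had 10.3, 9.45, 11.4 and 10.2 CPM in Hhex KO, against 4.35, 4.49 and 4.54 CPM in Cre control. Every Hhex KO library was more than 2-fold above every Cre control library, which came to 1.21 ± 0.16 on the log2 scale (adjusted p 0.00482). Epas1 over Hif1a, in CPM, was 0.132, 0.0924, 0.103 and 0.141 in Hhex KO, against 0.0587, 0.0528 and 0.0607 in Cre control. The level of Epas1 was already apart in the same direction, so this ratio is not a separate result. The other 9 tested regulators of HIF, among them the beta subunit gene Arnt and the ubiquitin ligase gene Vhl, were not called.

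Galm, which converts the anomers of galactose and glucose, had 6.28, 8.48, 9.42 and 5.76 CPM in Hhex KO, against 3.00, 3.26 and 3.46 CPM in Cre control. The groups were well apart, by 1.21 ± 0.23 on the log2 scale (adjusted p 0.0244). Bpgm, which makes 2,3-bisphosphoglycerate and is best known from red cells, had 23.5, 22.6, 24.1 and 20.5 CPM in Hhex KO, against 32.2, 34.4 and 30.1 CPM in Cre control. It fell by 0.50 ± 0.11 on the log2 scale (adjusted p 0.0424). Erythroid markers summed to 2.04 to 50.8 CPM in Hhex KO and 5.46 to 27.4 CPM in Cre control, and their part in Bpgm was not tested. Galm and Bpgm were the 2 genes called among 13 tested of 20 other enzymes of glycolysis and glycogen.

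Pdp1, the phosphatase that switches the pyruvate dehydrogenase complex back on and so opposes the Pdk kinases, had 19.7, 23.4, 22.6 and 21.3 CPM in Hhex KO, against 36.4, 31.6 and 31.9 CPM in Cre control. All Hhex KO libraries lay below all Cre control libraries, and it fell by 0.61 ± 0.12 (log2, adjusted p 0.0235), alone among 9 tested genes of the complex, its phosphatases and the pyruvate carrier. Vegfa was the gene called among 17 tested further HIF targets, with 14.6, 8.08, 5.30 and 8.15 CPM in Hhex KO, against 57.6, 27 and 50.8 CPM in Cre control (log2 fold change -2.32 ± 0.36, adjusted p 0.0123). Bhlhe40 (-1.44 ± 0.34, adjusted p 0.0555) and Ndrg1 (1.24 ± 0.33, adjusted p 0.0809), HIF targets named after their values were seen, pointed in opposite directions short of the threshold. Both were called with DESeq2, with quality weights, with the replicate number as a block and without the 3 libraries highest in Malat1. Ndrg1 was also called with nuclear-retained RNA as a covariate and without Hhex KO replicate 4. Bhlhe40 was also called with limma-voom and without Hhex KO replicate 1, and no other alternative called either gene. The summed handling and stress genes are also lower in Hhex KO, 530 to 3400 CPM against 5660 to 7720 CPM, and their part in the fall of Vegfa was not tested.

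Among 8 tested glucose and lactate carriers, 0 were called. Slc2a3, the glucose carrier GLUT3, had the smallest p, with 126, 132, 139 and 102 CPM in Hhex KO, against 158, 174 and 174 CPM in Cre control. All Hhex KO libraries were below Cre control, and the log2 fold change of -0.44 ± 0.13 had an adjusted p of 0.0986. Slc2a3 was called lower with DESeq2, with quality weights, with nuclear-retained RNA as a covariate and without the 3 libraries highest in Malat1. No other alternative called it. Platelet markers were also lower, with all 5 log2 fold changes between -1.64 and -0.77 and sums of 16.7 to 32.4 CPM in Hhex KO against 37.4 to 54.0 CPM in Cre control, and their part in Slc2a3 was not tested. Slc2a6 followed at -0.44 ± 0.16 (log2, adjusted p 0.177). Slc2a1, the glucose carrier GLUT1, was added after its values were seen. It had 61.3, 83.0, 82.5 and 58.2 CPM in Hhex KO, against 85.1, 96.1 and 91.0 CPM in Cre control, an estimate of -0.35 ± 0.15 (log2, adjusted p 0.270). Slc2a1 was called lower only in the fit with nuclear-retained RNA as a covariate. Among 6 tested further genes of the pentose phosphate pathway, 0 were called, and the smallest p belonged to H6pd (log2 fold change -0.21 ± 0.12, adjusted p 0.419) and Shpk (-0.30 ± 0.20, adjusted p 0.499).

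**Figure D5:**
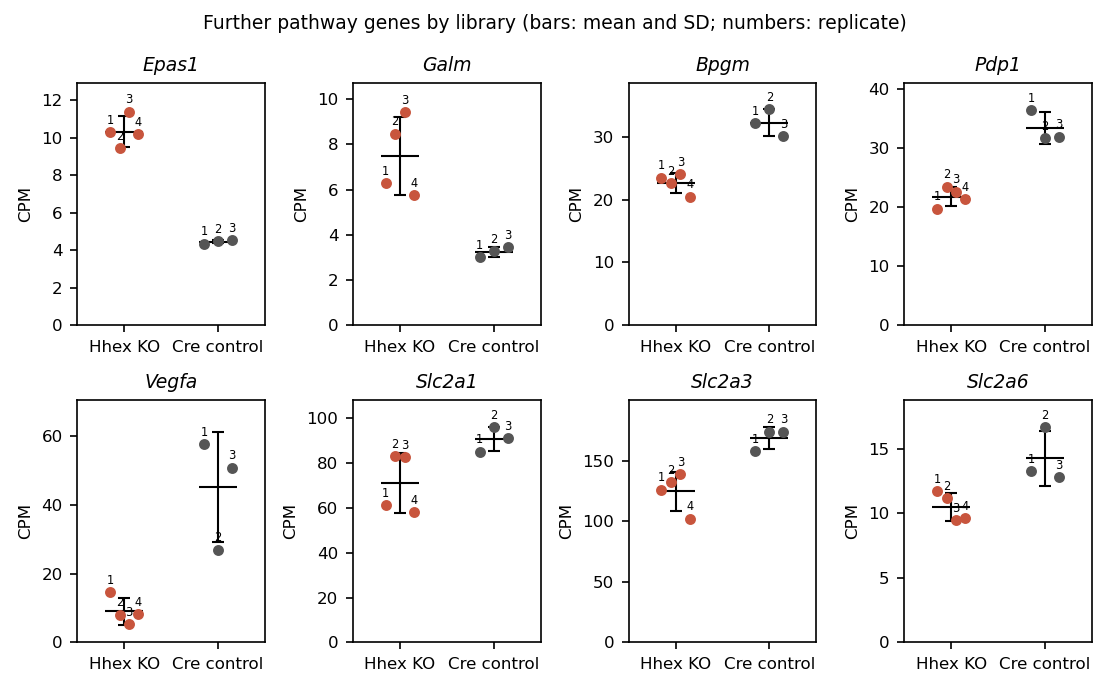
Level in CPM (y axis, from 0) of 8 further pathway genes, 1 point per library with its replicate number, Hhex KO left of Cre control, with bars at the group mean and SD. Epas1 and Galm are higher in Hhex KO, and Bpgm, Pdp1 and Vegfa lower, without overlap.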

How the data were processed

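Per the labels' protocols, RNA from sorted cells was made into libraries with a directional kit and read as 75 bp single ends. Per the submitters' processing notes, the authors used STAR, featureCounts and mm10, and they deposited raw counts per gene. No version, annotation release or strand setting is stated there, so a gene and its overlapping or antisense partner cannot be told apart. Columns were tied to samples through the titles in the labels. The labels speak of biological replicates without naming animals, so p-values cover only the spread of these samples, which may be technical. Replicates differed by more than sampling noise (chi-square per degree of freedom 10.4 to 71.5). Within Hhex KO the value was 10.4 between replicates 2 and 3 and 25.9 between replicates 1 and 4. It was 62.8 to 71.5 between a library of one of these pairs and a library of the other.

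Counts as deposited were tested with edgeR 4.0.16 in R 4.3.3 (TMM, filter with minimum count 10 and minimum total 15, robust quasi-likelihood F test, no covariate), with Benjamini-Hochberg adjustment over 12161 genes and calls below 0.05. The procedure was tested on simulated counts. The standard error is the size of the log2 fold change over the square root of F. CPM use TMM-scaled totals, and lengths and coordinates are those of GENCODE M21. Alternatives were scaling by RLE or upper quartile, a looser and a tighter filter, DESeq2 1.42.0, limma 3.58.1 (voom, also with quality weights per sample), a replicate block, each library left out, and 2 fits added after the data were seen.

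The genes and lists were chosen with earlier results of these data known. Named with every library were genes past 0.05 or without overlap, Hif1a, and the most abundant gene per length in each role group; from each further list, called genes or else the 2 with the smallest p. Gpi1, Hk2, Egln3, Hk3, P4ha1, Ndrg1, Bhlhe40 and Slc2a1 were added after their values were seen.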

Additional observations from a re-analysis of the deposited data

Results flagged for a closer look

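Pdk2 had 22.6 CPM in Hhex KO replicate 2, far from the 19.6, 20.1 and 19.9 CPM of the other Hhex KO libraries by Dixon's test, and it lay nearer than those to the Cre control libraries (24.1, 24.6 and 26.9 CPM). It was the 1 such value in 42 genes examined, and chance marks about 1 in 20 groups.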

How the results depend on the processing

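With RLE or upper-quartile scaling, no filter, a stricter filter, limma-voom or any library left out, 0 of the 37 genes were called higher and 0 lower, where 0.723 to 4.35% of all tested genes were called higher and 0.397 to 2.40% lower. Those called higher numbered 1 with DESeq2 (Pfkm), 13 with limma-voom and sample quality weights, 7 with nuclear-retained RNA as a covariate and 13 without the 3 libraries highest in Malat1, and 0 were called lower in each. The last 2 fits were chosen after seeing the data, and the cause of the added calls was not tested. The fit without the 3 libraries kept only Hhex KO replicates 2 and 3 and Cre control replicates 2 and 3.

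Across the table, where 326 genes were higher and 228 lower, the counts became 186 higher with the stricter filter, 625 and 469 with DESeq2, 1541 and 1323 with quality weights, 1029 and 927 with the covariate, and 1382 and 1227 without the 3 libraries. They ranged from 91 to 527 higher and from 50 to 291 lower with 1 library left out. Of the further pathway genes (2 higher, 3 lower), 1 was lower with no filter, 1 higher with the stricter filter, 6 lower with DESeq2, 5 higher and 8 lower with quality weights, 6 lower with the covariate, and 7 higher and 7 lower without the 3 libraries. With 1 library left out these were 1 to 3 higher and 0 to 3 lower. Epas1 was called in all 17 alternatives (adjusted p 3.21e-07 to 0.0380), whereas Bpgm was not called in 9 of 17, Galm in 5 of 16, Pdp1 in 5 of 17 and Vegfa in 3 of 17.

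Estimates near 0 changed sign, always without a call. The log2 fold change of Aldoa was 0.17 with quality weights, 0.18 without the 3 libraries and -0.14 to 0.10 with 1 library left out. With the covariate that of Pkm and Taldo1 was -0.01, and with 1 library left out it reached -0.08 for each. That of Bnip3l was 0.06 without the 3 libraries.

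No pairing by replicate number is stated. Same-numbered libraries deviated from their group means with correlations of 0.147, 0.566 and -0.0819, and differently numbered ones with -0.567 to 0.494. Deviations from a group mean cancel within the group, so these values cannot settle whether samples were paired. A fit with the replicate number as a block on 6 libraries called 499 genes higher (4.11%), of them 2 of the 37 (Hk2 and Gpi1), and gave 0.08 for Aldoa. Depth limits Ldhb, read by 4 to 7 counts in Cre control libraries.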

Other observations

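Of the further pathway genes, Adm, a HIF target that encodes adrenomedullin, had 0 reads in all 7 libraries, which allows up to 0.0286 CPM over the pooled 104964380 reads (3 counts, for counting error only).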
